A study of Rattus norvegicus with 16 samples.

Results

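The nitric oxide and cyclic GMP genes of the rat kidney were followed through 9 genes: the soluble guanylate cyclase subunits Gucy1b2, Gucy1b1 and Gucy1a1, the nitric oxide synthases Nos1, Nos2 and Nos3, and the natriuretic peptide receptors Npr1, Npr2 and Npr3. They were found on the array by the gene symbol that the platform annotation pairs with each probe set (a group of oligonucleotides read out as 1 signal), and all 9 had at least 1. They are 9 of the 4736 genes that the annotation names singly, with 22 probe sets of 8740. Of these, 14 probe sets of 6 genes were bright enough to be tested, and 8 probe sets of 5 genes were among the 40% with the lowest mean signal and are described without a test. A further 3 probe sets carry Nos2 together with another symbol and are not counted. The genes were chosen by the measured fall of Gucy1b2 in the kidneys given ACTH and by their role in its pathway, so for that gene the values in the ACTH rats are a description: no p-value or interval is given for them, and counts of calls that include them support nothing.

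Both kidneys of 8 rats were measured on 16 single-colour arrays, 1 per kidney. The left kidney of every rat was its control, and the right kidney received ACTH (adrenocorticotropic hormone) in rats 1 and 5, DEX in rats 3 and 7, and saline in rats 2, 4, 6 and 8. These numbers come from the array titles, whereas the series text speaks of 2 rats for each treatment. DEX is not spelled out in the labels, and strain, sex, age, dose, route and duration were not given in the sources used here, so whether a hormone also reached the control kidney is not known.

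Nitric oxide is made from arginine by the synthases and binds the haem of soluble guanylate cyclase, a heterodimer of an alpha and a beta subunit that then makes cyclic GMP. Natriuretic peptides reach the same second messenger through the membrane receptors Npr1 and Npr2, which are themselves guanylate cyclases, while Npr3 mainly clears the peptides. In the kidney this pathway is known for relaxing vessels and mesangium, for signalling at the macula densa and for promoting sodium excretion in the collecting duct.

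Each value is a signal intensity in linear units, and array medians lay between 76.0 and 82.4. A change is the right minus the left kidney of 1 rat on the scale log2(signal + 16), and a hormone effect is how far the mean change with a hormone exceeded the mean change with saline, from a limma fit over all 5244 tested probe sets with each rat as a block. Signals depend on each probe set's own oligonucleotides, so levels were compared between kidneys and not between probe sets. Markers of proximal tubule were bright (Slc34a1, the sodium phosphate cotransporter, had a mean signal of 5622), which fits the labelled tissue. The arrays of rats 1 to 4 and of rats 5 to 8 stood apart: 18.4% of the tested probe sets had no overlap between those 8 and 8 arrays. Each set of rats holds 1 ACTH, 1 DEX and 2 saline rats, so hormone effects are also given within each.

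Gucy1b2 encodes the second beta subunit of soluble guanylate cyclase, which was first cloned from rat kidney. In the data it was the member with the largest difference, and the 250 bases before its start are shown because its signal was the lowest of all arrays in both kidneys given ACTH. The sequence is from RefSeq on the GRCr8 build, chr15:40845464-40845713, minus strand, read 5′ to 3′ toward the gene, with capitals marking matches to CCAAT, here on the opposite strand as ATTGG.
Gucy1b2 promoter: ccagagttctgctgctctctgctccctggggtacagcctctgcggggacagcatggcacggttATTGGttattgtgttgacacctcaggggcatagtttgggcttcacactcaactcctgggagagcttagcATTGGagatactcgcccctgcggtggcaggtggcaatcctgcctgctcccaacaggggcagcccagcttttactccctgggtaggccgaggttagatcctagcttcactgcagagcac
The stretch holds 2 matches to CCAAT, a box that 34.0% of 33469 RefSeq promoters hold in the same window. Of the steroid receptor and cyclic AMP motifs searched on both strands, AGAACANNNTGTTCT, its arm AGAACA, TGACGTCA and its arm TGACG, none matched, and 0.012%, 17.5%, 1.59% and 18.2% of promoters hold them. Promoters were found for 7 of the 9 genes, and 1 of the 7, Nos1, holds TGACGTCA.

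Gucy1b2 was lower in the right than in the left kidney of both ACTH rats, and by far less in saline rats 2 and 8. Its signal (probe set M57507_at) was 221 in the left and 91.6 in the right kidney of ACTH rat 1. ACTH rat 5 had 192 on the left and 124 on the right. The DEX rats went from 156 to 206 and from 175 to 215. In the saline rats the left kidneys had 224, 164, 164 and 165 and the right kidneys 222, 189, 201 and 151, in the order of rats 2, 4, 6 and 8. The 2 right kidneys given ACTH were the lowest of the 16 arrays, below every left kidney and every saline or DEX kidney.

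The log2 changes were −1.14 and −0.57 with ACTH, 0.37 and 0.27 with DEX, and −0.01, 0.19, 0.27 and −0.11 with saline. Both ACTH changes lay below all 4 saline changes, as they did for 7.84% of the tested probe sets. The ACTH effect over saline was −0.94 ± 0.18 (SE of the fit, 2 ACTH and 4 saline rats), a 1.92-fold lower value of signal + 16. Among rats 1 to 4 alone it was −1.23, and among rats 5 to 8 alone −0.65. Against DEX the ACTH effect was −1.18 ± 0.21.

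**Figure D1:**
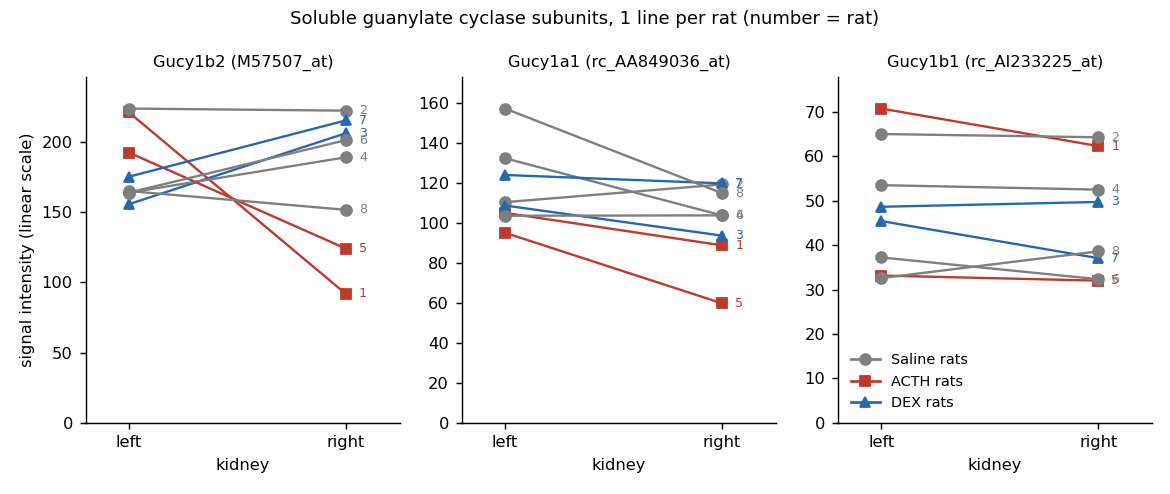
Signal intensity (linear scale from 0) of 3 soluble guanylate cyclase subunits in the left and right kidney, with 1 line per rat, coloured by treatment and numbered by rat. Gucy1b2 falls to 91.6 and 124 in the 2 ACTH rats, Gucy1a1 is lowest in the same 2 right kidneys, and Gucy1b1 separates rats 1 to 4 from rats 5 to 8 with little change between kidneys.

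With DEX the Gucy1b2 value was higher on the right, without passing the test, and its sign turned with the fat score as a covariate. Both DEX changes lay above the highest saline change, if only just in rat 7 (0.2748 against 0.2725), and 12.4% of the tested probe sets had both DEX changes outside the saline range. The DEX effect over saline was 0.24 ± 0.18 (95% interval −0.16 to 0.64, adjusted p = 0.999 in limma), and −0.10 ± 0.19 with the fat score. The right over left change within the DEX rats went from 0.32 to −0.09 with that covariate.

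Several marker lists moved with or against Gucy1b2 in the hormone rats. The fat list had 8 of its 9 genes on the array, 7 above the filter. Its mean log2 level changed by 1.39 and 0.36 in the ACTH rats and by −1.09 and −0.96 in the DEX rats. In saline rats 2, 4, 6 and 8 it changed by 0.33, −0.33, −0.84 and 0.10. The sign was opposite to that of the Gucy1b2 change in every rat. The fat level in the right kidney was 9.45 in rat 1 and 7.39 in rat 5, against 6.63 to 7.16 in the saline rats. The 8 genes included leptin, Scd and Ucp1, whose mean signals over the 16 arrays were 571, 744 and 237, while Plin1 (42.0) was under the filter. The left kidneys of rats 1, 6, 7 and 3 had fat scores of 8.06, 7.90, 7.78 and 7.77, above the 7.39 of rat 5. Their Gucy1b2 signals were 221, 164, 175 and 156, where all left kidneys ran from 156 to 224. With the fat score as a covariate the ACTH effect on Gucy1b2 was −0.51 ± 0.21. The fat score rose in both ACTH rats and fell in both DEX rats, so this fit cannot tell fat and hormone apart.

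**Figure D2:**
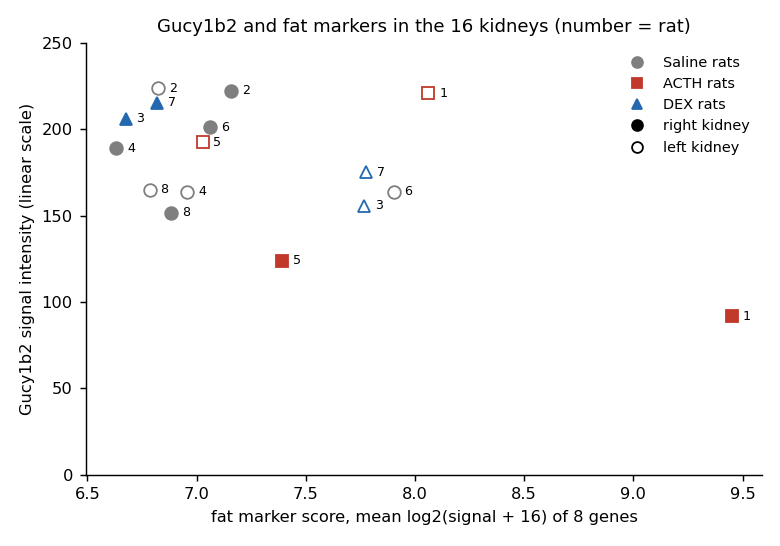
Gucy1b2 signal intensity (vertical, linear from 0) against the fat marker score (horizontal, mean log2(signal + 16) of 8 genes) in each of the 16 kidneys, filled for right and open for left, numbered by rat. The right kidneys of ACTH rats 1 and 5 lie lowest, at fat scores of 9.45 and 7.39. The left kidneys of rats 1, 6, 7 and 3, at scores of 8.06, 7.90, 7.78 and 7.77, have signals of 221, 164, 175 and 156. Within every rat, the kidney with the higher fat score has the lower Gucy1b2 signal.

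Markers of the thick ascending limb (4 of 5 genes on the array) changed by −0.49 and −0.25 with ACTH and by 0.40 and 0.18 with DEX. These are the same signs as Gucy1b2 in all 4 hormone rats. In saline rats 2, 4, 6 and 8 the list changed by 0.13, 0.12, −0.15 and −0.13, opposite in sign to Gucy1b2 in rats 2 and 6. Smooth muscle and mesangial markers (8 of 9 genes) changed by 0.21 and 0.40 with ACTH and by −0.13 and −0.11 with DEX. Their saline changes ran from −0.08 to 0.04. Fibroblast markers (6 of 7 genes) changed by −0.65 and −0.30 with ACTH and by −0.47 and −0.51 with DEX, and so did not follow Gucy1b2 in the DEX rats. With saline these markers changed by 0.03 to 0.20. Proximal tubule markers (8 of 9 genes) changed by −0.17 and −0.05 with ACTH, 0.13 and 0.13 with DEX and −0.08 to 0.28 with saline, also with the signs of Gucy1b2 but within the saline range in 3 of the 4 hormone rats. Distal convoluted and connecting tubule markers (4 of 5 genes) changed by 0.32 and 0.71 with ACTH, 0.20 and 0.05 with DEX and 0.04 to 0.28 with saline. The part of these lists and of the fat list in the Gucy1b2 values was not tested. In whole kidney RNA, fewer cells of a type and less RNA per cell cannot be told apart.

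The genes whose 8 right minus left changes were most like those of Gucy1b2, among 3186 genes, were Cyp2c11, a male-typical cytochrome (Pearson r = 0.97 over 8 rats), the phosphate cotransporter Slc34a1 (0.94), the carnitine transporter Slc22a5 (0.94), the organic anion transporter Slco1a1 (0.94) and the sialyltransferase St6gal1 (0.93). Those most opposed were Cpt1b, which carries fatty acids into mitochondria (−0.99), Acly, which makes acetyl-CoA for lipid synthesis (−0.97), the sodium pump regulator Fxyd1 (−0.97), the galectin-like Grifin (−0.96) and the integrin Itga7 (−0.94). ACTH effects of the first group ran from −1.47 for Cyp2c11 to −0.28 for Slc34a1, and those of the second from 0.49 for Fxyd1 to 1.72 for Grifin. The 2 ACTH rats lie far from the other 6 in these values, all of which share arrays, and the correlations are a description without a test. No other member was among them, and the correlation of Gucy1b2 with the 13 other tested members ran from −0.41 to 0.36.

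Gucy1a1, the alpha subunit of the usual heterodimer, was also lowest in both kidneys given ACTH. Its signal (rc_AA849036_at) was 105 and 88.7 in the left and right kidney of ACTH rat 1, 95.0 and 59.7 in rat 5, 109 and 93.5 in DEX rat 3, and 124 and 120 in DEX rat 7. The saline rats had 110, 103, 132 and 157 on the left and 119, 104, 104 and 115 on the right. Both ACTH right kidneys were below the other 14 arrays, as for 1.7% of the tested probe sets.

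The right kidney of DEX rat 3 and the left kidney of ACTH rat 5 came next. The changes were −0.21 and −0.55 with ACTH, and those of the saline rats ran from −0.40 to 0.10 and overlapped them. The ACTH effect on Gucy1a1 was −0.23 ± 0.18 (95% interval −0.61 to 0.16) and the DEX effect 0.04 ± 0.18 (−0.35 to 0.42). Neither passed the test. The ACTH value was −0.50 with right kidneys only or without the pairing, −0.48 ± 0.24 with the fat score, −0.40 without rat 1, −0.14 without rat 2 and −0.05 without rat 5.

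Gucy1b1, the beta subunit that pairs with Gucy1a1, was under the brightness filter (mean left signal 48.3 ± 14.2 SD, n = 8). The left kidneys had 70.8, 65.1, 48.7 and 53.5 in rats 1 to 4 and 33.2, 37.3, 45.5 and 32.6 in rats 5 to 8, and the right kidneys 62.4, 64.3, 49.8 and 52.5, then 32.0, 32.3, 37.1 and 38.6. The arrays of rats 1 to 4 were all above those of rats 5 to 8. The changes with ACTH, −0.15 and −0.03, lay within or next to the saline changes of −0.14 to 0.17.

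Counted over the 14 tested probe sets, 0 passed the adjusted threshold of 0.05 for ACTH over saline, where 0.42% of all tested probe sets did. At an unadjusted p under 0.05, 1 member (Gucy1b2) was called, against 9.52% of all. For ACTH over DEX 1 of 14 passed, again Gucy1b2, against 0.477% of all. For right over left kidney within the ACTH rats 1 of 14 passed, Gucy1b2, against 3.18% of all. These contrasts include the values for which Gucy1b2 was chosen, and nothing is read from the counts. The call against DEX was lost without rat 1, 2, 3, 4 or 7, and the call within the ACTH rats without rat 1, while leaving out rat 5 gave 1 call for ACTH over saline. Without the pairing of the 2 kidneys of each rat both calls were lost (0 of 14 each), as they were with the fat score as a covariate.

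For DEX over saline 0 of 14 passed, against 0% of all tested probe sets in limma. At an unadjusted p under 0.05 the counts were 0 of 14 and 2.92%. Within the saline rats and within the DEX rats 0 of 14 differed between right and left kidney at the adjusted threshold, against 0% of all in each. At an unadjusted p under 0.05 these comparisons had 0 members, against 3.7% and 5.97% of all.

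**Figure D3:**
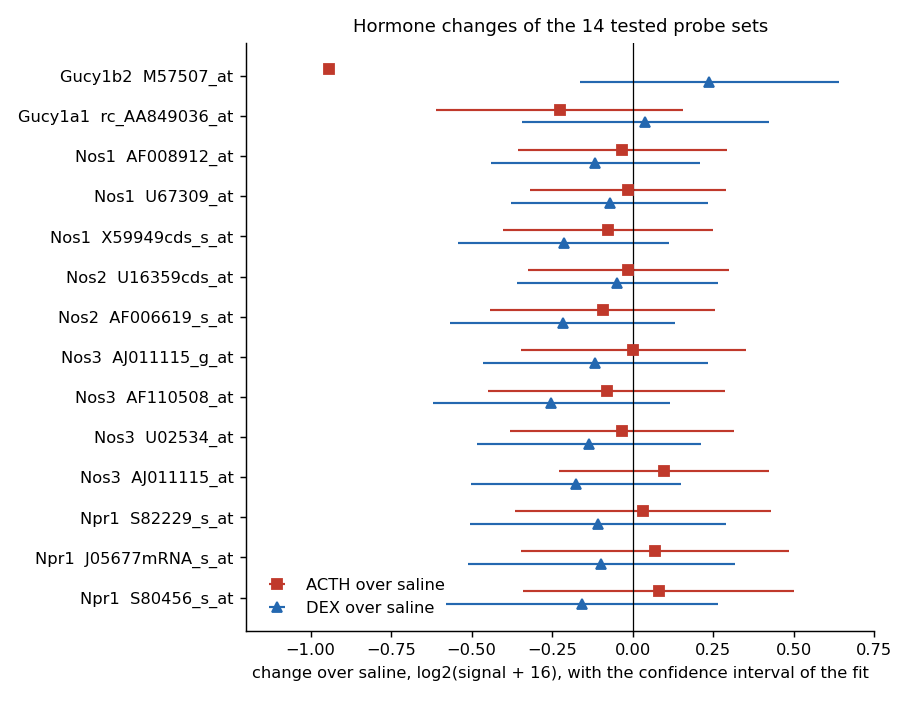
Effects of ACTH (squares) and DEX (triangles) over saline for the 14 tested probe sets, as log2 change with the 95% interval of the fit, which is left out for the ACTH value of Gucy1b2 (−0.94), for which that gene was chosen. The ACTH intervals of the 13 other probe sets include 0, and 12 of the 14 DEX values are below 0 with intervals that include it.

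The signals of the tested synthase probe sets were nearly flat with ACTH and slightly lower in value with DEX. Of the 13 synthase probe sets, 9 were tested: 3 of Nos1, the neuronal form that the macula densa also makes, 2 of Nos2, the inducible form, and 4 of Nos3, the endothelial form. Their ACTH effects ran from −0.09 (Nos2 AF006619_s_at) to 0.10 (Nos3 AJ011115_at), with 7 of 9 below 0, where 50.1% of all tested probe sets were. That count ranged from 3 of 9 (with the fat score, or without rat 6) to 8 of 9 over the other settings. Their DEX effects ran from −0.25 to −0.05, and all 9 were below 0, where 50.5% of all tested probe sets were. Under the filter, the Nos2 values were 0.11 (U03699complete_seq_at) and −0.06 (S71597_s_at), without a test. Those of Nos3 were −0.10 (AJ011116_at) and −0.01 (AF085195_at). The median DEX effect of the 14 tested members was −0.12, against −0.003 for all tested probe sets.

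No synthase probe set passed the test for DEX (the smallest adjusted p was 0.999 in limma), and 3 of the 9 signs rested on 1 animal. Without DEX rat 3, 6 of the 9 were below 0, while under each of the other 19 alternative settings all 9 were. Probe sets of these genes also moved together between rats: the correlation of the 8 changes had a median of 0.69 over 36 pairs (0.38 to 0.96), against 0.00 over all pairs of tested probe sets. They are therefore not 9 separate observations.

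Of the tested synthase probe sets, AF110508_at of Nos3 showed the difference between the DEX rats most clearly. AF110508_at had 111 in the left and 72.0 in the right kidney of rat 3, a change of −0.53, but 83.1 and 79.9 in rat 7, a change of −0.05. Among the left kidneys the 111 of rat 3 stood apart, as the other 7 ran from 80.1 to 93.4. The saline changes were −0.12, −0.14, 0.16 and −0.05, and the ACTH changes −0.25 and 0.01.

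The DEX effect of AF110508_at was −0.25 ± 0.17 (95% interval −0.62 to 0.12), with −0.40 from rats 1 to 4 and −0.10 from rats 5 to 8. The brightest Nos3 probe set, AJ011115_g_at, had 219 and 179 in rat 3, 213 and 204 in rat 7, 182 and 184 in ACTH rat 1, and 253 and 235 in rat 5, also given ACTH. Its saline rats had 191, 207, 233 and 225 on the left and 177, 171, 248 and 240 on the right. The groups overlapped, and its effects were 0.002 ± 0.16 for ACTH and −0.12 ± 0.16 for DEX.

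The other tested Nos3 probe sets, U02534_at and AJ011115_at, had mean signals of 71.0 and 67.7, little above the lowest tested signal of 61.1. They gave DEX effects of −0.14 ± 0.16 and −0.18 ± 0.15. AJ011115_at changed by 0.10 and 0.02 with ACTH and by −0.26 and −0.16 with DEX, so the hormones had opposite signs, as for 14.1% of the tested probe sets. Its saline changes, −0.24 to 0.20, spanned nearly all of these values. AJ011116_at and AF085195_at were under the filter, with mean left signals of 44.2 ± 8.77 and 37.6 ± 7.83 (SD, n = 8). Endothelial markers (4 of 10 genes on the array) changed by −0.01 and −0.07 with ACTH and by −0.09 and −0.08 with DEX, against −0.03 to 0.29 with saline.

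Nos1 was measured by 3 tested probe sets. AF008912_at had 147 and 142 in the left and right kidney of ACTH rat 1, 170 and 159 in rat 5, 164 and 136 in DEX rat 3, and 140 and 135 in rat 7. The saline rats had 153, 155, 155 and 155 on the left and 145, 134, 173 and 151 on the right. All groups overlapped, with effects of −0.03 ± 0.15 for ACTH and −0.12 ± 0.15 for DEX. Of the macula densa and juxtaglomerular list 1 of 3 genes was on the array, Ptgs2, and it changed by −0.26 and −0.42 with ACTH, −0.66 and −0.17 with DEX and −0.42 to −0.11 with saline.

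U67309_at and X59949cds_s_at of Nos1 gave ACTH effects of −0.01 ± 0.14 and −0.08 ± 0.15, and DEX effects of −0.07 ± 0.14 and −0.21 ± 0.15. As for the Nos3 probe set AF110508_at, the low DEX value of X59949cds_s_at came from rat 3. It changed by −0.46 there and by −0.03 in rat 7. The fitted intervals for ACTH on the 3 Nos1 probe sets reached from −0.40 to 0.29 at their widest (95% intervals).

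Nos2 had 2 tested probe sets that differed in how they varied between rats. AF006619_s_at had 71.7 and 97.1 in the ACTH right kidneys, 64.2 and 108 in the DEX right kidneys, and 75.7, 69.1, 137 and 151 in the saline right kidneys, in the order of the rats. The left kidneys ran from 69.4 to 136. U16359cds_at had 117 and 104, 106 and 88.2, and 102, 101, 111 and 95.9 in the same order, with left kidneys from 79.5 to 120.

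The treatment groups overlapped in both. The effects of AF006619_s_at were −0.09 ± 0.16 for ACTH and −0.22 ± 0.16 for DEX, and those of U16359cds_at −0.01 ± 0.14 and −0.05 ± 0.14. The ACTH effect of AF006619_s_at was 0.21 among rats 1 to 4 but −0.39 among rats 5 to 8. S71597_s_at and U03699complete_seq_at were under the filter, with mean left signals of 53.8 ± 8.42 and 49.5 ± 4.95 (SD, n = 8).

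**Figure D4:**
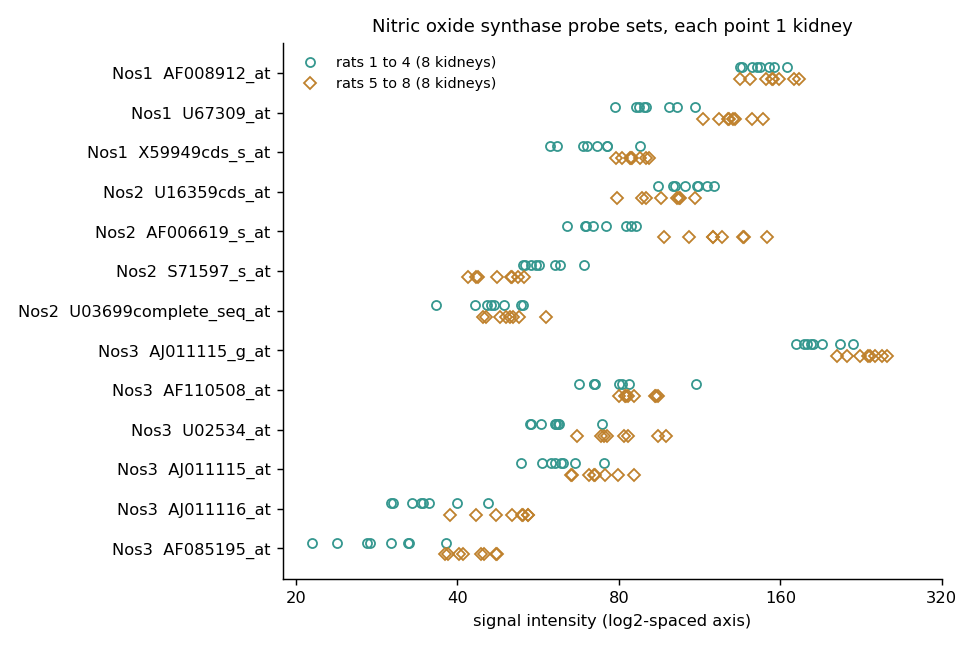
Signal intensity of the 13 nitric oxide synthase probe sets (log2-spaced axis), each point 1 kidney, circles for rats 1 to 4 and diamonds for rats 5 to 8. Nos1 U67309_at and Nos2 AF006619_s_at do not overlap between the 2 sets of rats, and Nos2 U16359cds_at and S71597_s_at lie the other way, lower in rats 5 to 8.

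Of the 9 tested synthase probe sets 2 (22.2%) did not overlap between rats 1 to 4 and rats 5 to 8, against 18.4% of all tested probe sets. The mean of the left kidneys was higher in rats 5 to 8 for 7 of the 9, against 53.4% of all tested probe sets. For Nos1 AF008912_at, counted among the 7, the means were nearly equal, 154.8 in rats 1 to 4 and 154.86 in rats 5 to 8. Nos1 U67309_at ran from 78.8 to 111 in the 8 kidneys of rats 1 to 4 and from 115 to 148 in those of rats 5 to 8. Nos2 AF006619_s_at ran from 64.2 to 85.9 and from 97.1 to 151.

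Neither of these overlapped between the sets of rats. Of the 14 tested members 2 (14.3%) did not overlap, against 18.4% of the tested probe sets. Of all 22 members 4 (18.2%) did not, the others being Gucy1b1 and Npr2, against 16.1% of the 8740. These shares are near the background, so the separation is not particular to these genes. For Nos2 the probe sets disagreed: U16359cds_at was lower in rats 5 to 8, with 79.5 to 104 on the left against 94.8 to 120 in rats 1 to 4. The labels name nothing that sets these rats apart.

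Npr1, the receptor for atrial natriuretic peptide, moved in opposite directions in the ACTH rats. S82229_s_at went from 174 to 139 in rat 1 and from 137 to 185 in rat 5, while the DEX rats went from 168 to 152 and from 167 to 161. The saline rats had 154, 162, 164 and 169 on the left and 150, 154, 174 and 179 on the right. The left kidney of rat 5 was the lowest and its right kidney the highest of the 16.

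The changes were −0.29 in rat 1 and 0.39 in rat 5 for S82229_s_at, −0.32 and 0.33 for J05677mRNA_s_at, and −0.29 and 0.38 for S80456_s_at. In all 3 probe sets rat 1 lay below and rat 5 above the range of the 4 saline rats, which ran at its widest from −0.22 to 0.16. This happened for 9.69% of all tested probe sets, and the 3 probe sets report the same gene. The averaged ACTH effects were accordingly small, 0.03 ± 0.18, 0.07 ± 0.19 and 0.08 ± 0.19, and the DEX effects were −0.11 ± 0.18, −0.10 ± 0.19 and −0.16 ± 0.19.

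An average over these 2 rats describes neither of them. Without rat 1 the ACTH effect of S80456_s_at was 0.41 and without rat 5 it was −0.25. In DEX rat 3 all 3 probe sets were lower on the right, with S80456_s_at going from 126 to 93.3, and in rat 7 they changed by −0.05 to −0.002. J05677mRNA_s_at had 124 in the left kidney of saline rat 4, while the other 7 left kidneys ran from 160 to 186.

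**Figure D5:**
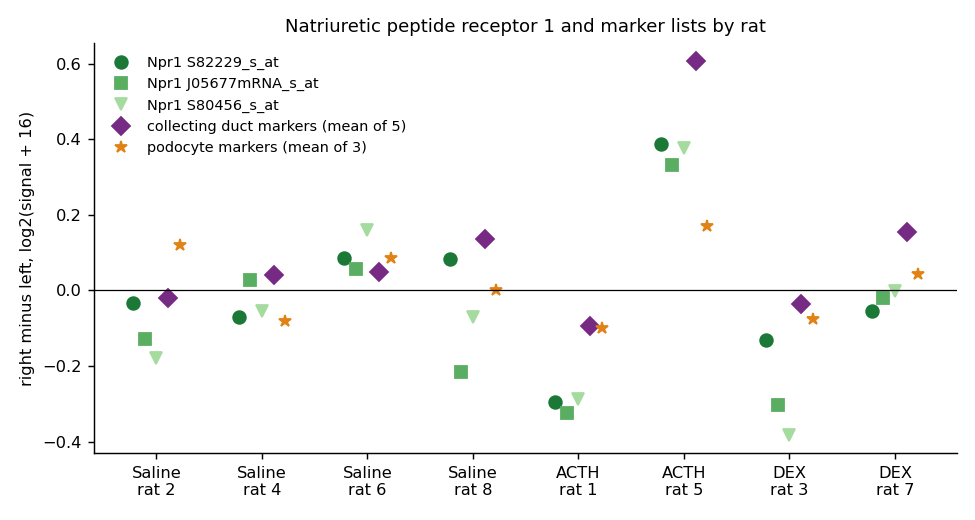
Right minus left change on the scale log2(signal + 16) of the 3 Npr1 probe sets, of the collecting duct list (mean of 5 genes) and of the podocyte list (mean of 3 genes) in each of the 8 rats. ACTH rat 1 lies near −0.3 and ACTH rat 5 between 0.33 and 0.39 for Npr1, and the collecting duct list stands at 0.61 in rat 5.

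Markers of the collecting duct, where Npr1 is known to act, moved in rat 5 as well. The list (5 of 5 genes on the array) changed by −0.09 in rat 1, 0.61 in rat 5, −0.04 and 0.15 in the DEX rats, and −0.02 to 0.14 with saline. Podocyte markers (3 of 6 genes), of another place where Npr1 is found, changed by −0.10 and 0.17 with ACTH, against −0.08 to 0.12 with saline. The genes whose changes were most like those of Npr1 S82229_s_at over the 8 rats were Ly6al (Pearson r = 0.98), the collecting duct water channel Aqp2 (0.96) and the translation factor subunit Eif3b (0.94). The part of the collecting duct list in the Npr1 values was not tested.

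Npr2, the receptor for C-type natriuretic peptide, was under the filter. M26896_at had 52.7, 87.1, 52.2 and 67.3 in the left kidneys of rats 1 to 4 and 45.3, 49.2, 45.0 and 48.7 in those of rats 5 to 8. The right kidneys had 53.3, 56.3, 61.9 and 81.7, then 50.1, 43.9, 43.1 and 48.2. The values of rats 1 to 4 were all above those of rats 5 to 8, and the ACTH changes (0.01 and 0.11) lay inside the saline range of −0.51 to 0.23.

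Npr3, the clearance receptor, had both of its probe sets under the filter. rc_AA945907_at had 44.3 and 61.9 in ACTH rat 1, then 31.7 and 36.0 in the other ACTH rat, 42.5 and 38.9 in DEX rat 3, and 36.8 and 45.7 in DEX rat 7. The saline rats had 40.6, 46.3, 41.5 and 44.8 on the left and 37.3, 38.6, 33.2 and 41.8 on the right, so all 4 were lower on the right. Both ACTH changes (0.37 and 0.12) lay above the saline changes (−0.22 to −0.07), as did 1 of the DEX changes (−0.09 and 0.22). Both ACTH changes lay outside the saline range on the same side for 2 of the 22 members (9.1%), the other being Gucy1b2. Among the 14 tested members it was 1 (7.1%), Gucy1b2, against 15.6% of all tested probe sets.

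The second Npr3 probe set, S79624_at, changed by 0.13 and 0.04 with ACTH, −0.02 and −0.22 with DEX and −0.14 to 0.05 with saline, and did not repeat the separation. The fat score was highest in the right kidney of rat 1, where rc_AA945907_at also had its highest signal. Its part in the value was not tested.

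The same measure of likeness over the 8 changes was taken for the other tested members, again as a description. For Nos3 AJ011115_g_at the nearest genes were Grip2 (Pearson r = 0.99), Tmem255b (0.98) and Padi3 (0.98), and for Nos1 AF008912_at they were Ampd1 (0.98), Or1f32 (0.97) and Sycn (0.96). For Nos2 U16359cds_at they were Slc6a9 (0.97), Kif3c (0.97) and Pyy (0.97). For Gucy1a1 they were Tnfrsf11b (0.96), Ptpra (0.95) and Tmpo (0.92).

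Beyond the 9 genes, 0 genes of 4 wider lists passed the adjusted threshold of limma in any of the 6 comparisons. Of all tested probe sets 0% to 3.18% passed it, depending on the comparison. The lists were natriuretic peptides and guanylins with their processing (7 of 8 genes tested), other guanylate cyclases (2 of 6), cyclic GMP targets and breakdown (4 of 22), and arginine supply, cofactor and regulators of the synthases (14 of 30). Their median ACTH effects were 0.05, 0.03, −0.02 and 0.09, and their median DEX effects −0.06, 0.01, −0.09 and 0.05. At an unadjusted p under 0.05, 1 gene of the 4 lists was called for ACTH over saline, against 9.52% of all tested probe sets. For DEX over saline 1 was called, against 2.92% of all.

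Among the peptides and their enzymes, Mme, the neprilysin that degrades natriuretic peptides, differed in sign between the hormones without passing the adjusted threshold. It changed by −0.32 and −0.57 with ACTH, 0.56 and 0.18 with DEX, and 0.04, 0.09, −0.44 and 0.02 with saline. Its effects were −0.37 ± 0.19 for ACTH and 0.44 ± 0.19 for DEX. Furin, a protease that processes prohormones, had an ACTH effect of 0.18 ± 0.17, and Nppb, which encodes B-type natriuretic peptide, a DEX effect of −0.13 ± 0.14.

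Of the other cyclases, Gucy2c, the guanylin receptor, had effects of 0.18 ± 0.14 for ACTH and 0.05 ± 0.14 for DEX, and the receptor cyclase Gucy2e −0.12 ± 0.15 and −0.03 ± 0.15. Of the phosphodiesterase genes, Pde6d had −0.14 ± 0.15 and −0.24 ± 0.15, and Pde1b 0.14 ± 0.15 and 0.17 ± 0.15. None of these separated from 0 by more than its 95% interval.

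Of the synthase regulators, Cav1, the caveolin that holds Nos3 inactive, had the largest ACTH effect, 0.87 ± 0.32 (adjusted p = 0.378 in limma). It changed by 1.67 in rat 1 and 0.11 in rat 5, against −0.24 to 0.25 with saline and −0.33 and −0.40 with DEX. The value thus came from rat 1, the kidney with the fat score of 9.45, and fat cells are known to be rich in caveolin. The part of fat in the value was not tested.

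Pts, an enzyme of tetrahydrobiopterin synthesis, had an ACTH effect of −0.28 ± 0.15, with changes of −0.07 and −0.42. For DEX the smallest p-values of that list belonged to the chaperone Hsp90ab1 (0.22 ± 0.14) and the scaffold protein gene Dlg4 (−0.20 ± 0.15).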

How the data were processed

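RNA from 16 rat kidneys was measured on 1-colour arrays. Per the labels' protocols, RNA was extracted with Tri-Reagent, cleaned on RNeasy columns and made into biotin-labelled cRNA. The authors deposited 1 signal intensity per probe set, in linear units. The software and normalization were not given in the sources used here. Groups, and the pairing of the 2 kidneys of each rat, came from the array titles. After removal of 59 control probe sets, 5244 of 8740 (mean signal of at least 61.1) were fitted as log2(signal + 16) with limma 3.58.1 in R 4.3.3, with a term per rat, the right kidney, and ACTH and DEX in it, leaving 5 residual degrees of freedom. Tests were two-sided with Benjamini and Hochberg's adjustment over 5244 probe sets in each of 6 comparisons, and the fit was tested on simulated data. Every member probe set is named. The members, lists and naming rules (the 2 smallest p-values of each wider list, the 5 or 3 genes most like a member) were chosen with earlier results of these data known. Marker lists are given as mean log2 levels where they moved with or against a member or mark its known site. With 2 rats for each hormone, the number of arrays limits the precision.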

Additional observations from a re-analysis of the deposited data

Results flagged for a closer look

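A single kidney stood apart from its group in 2 of 44 groups of values examined, and chance marks about 1 in 20. Not all 44 were groups of left kidneys, but in both cases a left kidney stood apart from the other 7. The Nos3 probe set AF110508_at had 111 in the left kidney of rat 3, with the next value at 93.4. The Npr1 probe set J05677mRNA_s_at had 124 in the left kidney of rat 4, with the next value at 160.

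For 3 of the 22 members (13.6%) both ACTH rats changed in one direction and both DEX rats in the other. Among the 14 tested members it was 2 (14.3%), near the background of 14.1% of all tested probe sets. The ACTH effect minus the DEX effect was −1.18 for Gucy1b2, 0.27 for Nos3 AJ011115_at and 0.21 for Npr3 S79624_at. The difference is not read as a test for Gucy1b2, which was chosen for its fall with ACTH. It did not pass the adjusted threshold of limma for AJ011115_at and was not tested for S79624_at, which was under the brightness filter.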

How the results depend on the processing

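The count of members past the threshold was recomputed under 19 other settings and 1 added after seeing the data, and no called value reversed its direction. For ACTH over saline the count was 0 in the main setting and 1 (Gucy1b2) when the change could differ between rats 1 to 4 and 5 to 8 and, in the added alternative, with the filter set on the mean of the log2 values; leaving out 1 rat gave 0 to 1 (1 without rat 5). For ACTH over DEX the count of 1 became 0 with no replicate block, that is without pairing the kidneys of a rat, with right kidneys only and with the fat score as a covariate, and leaving out 1 rat gave 0 to 1 (0 without rat 1, 2, 3, 4 or 7). For right over left in the ACTH rats the count of 1 became 0 with no replicate block and with the fat score, and leaving out 1 rat gave 0 to 1 (0 without rat 1). The ACTH effect on Gucy1b2 ran from −1.22 to −0.51 in the 20 alternatives. It was −0.66 without rat 1 and −0.74 in right kidneys only. The settings reuse arrays for which Gucy1b2 was chosen, so its counts, signs and values here are a description and do not support its fall. Over all tested probe sets the ACTH over saline count of 22 was 12 with quantile normalization, 14 with no replicate block, 0 with right kidneys only or the fat score, 39 when the change could differ between the sets of rats, and 9 to 117 without 1 rat. The ACTH over DEX count of 25 was 0, 0, 10, 70 and 2 to 92 with no block, right kidneys only, the fat score, differing sets of rats and 1 rat left out. Right over left in the ACTH rats gave 167, then 51 with no block, 277 with differing sets and 107 to 267 without 1 rat. For DEX over saline 0 became at most 2. Causes of these shifts were not tested. Signals near the floor of the array limit Gucy1b1, Npr2, Npr3 and the synthase probe sets under the brightness filter or little above it.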
